A study of Danio rerio with 6 samples.

Results

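The Egr and AP-1 immediate early genes of the zebrafish were followed in embryos carrying the human fusion oncogene EWS-FLI1. The 10 genes chosen were egr1, egr2b, egr3, fosab, fosl1a, junba, junbb, atf3, ier2a and dusp1. A probe set was taken where the platform annotation gave it exactly 1 gene symbol and that symbol was on the list. This found 12 probe sets for 8 of the 10 genes, out of 15502 probe sets tested and 8793 genes measured. egr3 and fosl1a had no such probe set and were not analysed here.

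The series holds 6 Affymetrix arrays of whole embryos, 3 per group. The first group was Tg(HSP:EWS-FLI1), in which a heat shock promoter drives the fusion of the human EWS and FLI1 genes found in Ewing sarcoma, and the second was the wild-type AB strain without the transgene. Embryos of both groups reached 50% epiboly, the stage at which gastrulation starts. Both groups were then kept at 39 °C for 30 min and at 28.5 °C for a further 2 h, and each array used RNA of 40 pooled embryos. All arrays were taken at this same time, so a response that came and went earlier was not measured. The heat shock was therefore shared by both groups, and no array of unheated embryos was analysed here, so the response of these genes to heat itself was not measured. The labels give neither the number of insertions or founders behind the line nor the clutches behind each pool. The limma p-values rest on the spread between these pools. limma takes that spread as equal in both groups and draws it toward the spread of all probe sets. In whole embryos, fewer cells expressing a gene and less RNA per cell cannot be told apart.

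Immediate early genes are transcribed within minutes of a growth factor, stress or differentiation signal, without new protein synthesis. Mitogen-activated protein (MAP) kinases pass the signal to factors already bound at their promoters, such as SRF with its ETS-family partners. Egr proteins are zinc-finger transcription factors, while Fos and Jun proteins pair through leucine zippers to form AP-1. In the zebrafish gastrula this kinase pathway is driven largely by fibroblast growth factors. egr2b, also called krox20, is in addition a patterning gene of alternating hindbrain segments.

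All values are log2 RMA values as deposited, and each difference is EWS-FLI1 minus AB control on that scale, so 1 log2 unit is a doubling. Array medians lay between 5.09 and 5.13, and correlations across probe sets were 0.998 within the EWS-FLI1 group, 0.991 to 0.994 within the AB controls and 0.982 to 0.988 between groups. Arrays have no read depth, and the number of arrays limits the precision. The 95th percentile of 44 bacterial and tag control probe sets, 4.19, served as a background reference. Gastrula markers checked the tissue: all 24 measured genes of a gastrula list lay above it in both groups. The organizer gene gsc was lower at 7.39, 7.59 and 7.64 in EWS-FLI1, against 8.56, 8.54 and 8.24 in AB controls. The mesoderm gene tbxta was higher at 8.74, 8.38 and 8.51 in EWS-FLI1, against 8.04, 7.99 and 7.98 in AB controls. Of the 24 genes, tbxta alone was called higher and 12 were called lower, among them the mesoderm gene tbx6 (difference -0.84).

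Among the 12 probe sets, egr2b and 1 probe set of fosab were higher in EWS-FLI1 embryos, atf3 was lower, and 9 were not called (limma, adjusted p under 0.05 over the whole table). Across all probe sets 5.38% were called higher and 6.46% lower, so the 2 of 12 and 1 of 12 are small counts set against a broad change. Higher calls made up 45.4% of all calls, and 31.8% where arrays were scaled on spike-in controls, with the same member counts. The groups did not overlap at 8 of the 12 probe sets, against 29.0% of all probe sets. Of these 8, 3 read fosab and 1 was an egr1 probe set under the background reference. The median difference was 0.10 over the 12 and 0.00 over all probe sets tested. With 1 probe set per gene, the median was 0.01, and the groups did not overlap at 5 of the 8 genes, against 31.5% of all genes. The members did not move in a common direction, and the largest difference was that of egr2b at 2.37, which exceeds 99.7% of all probe sets in absolute size.

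**Figure D1:**
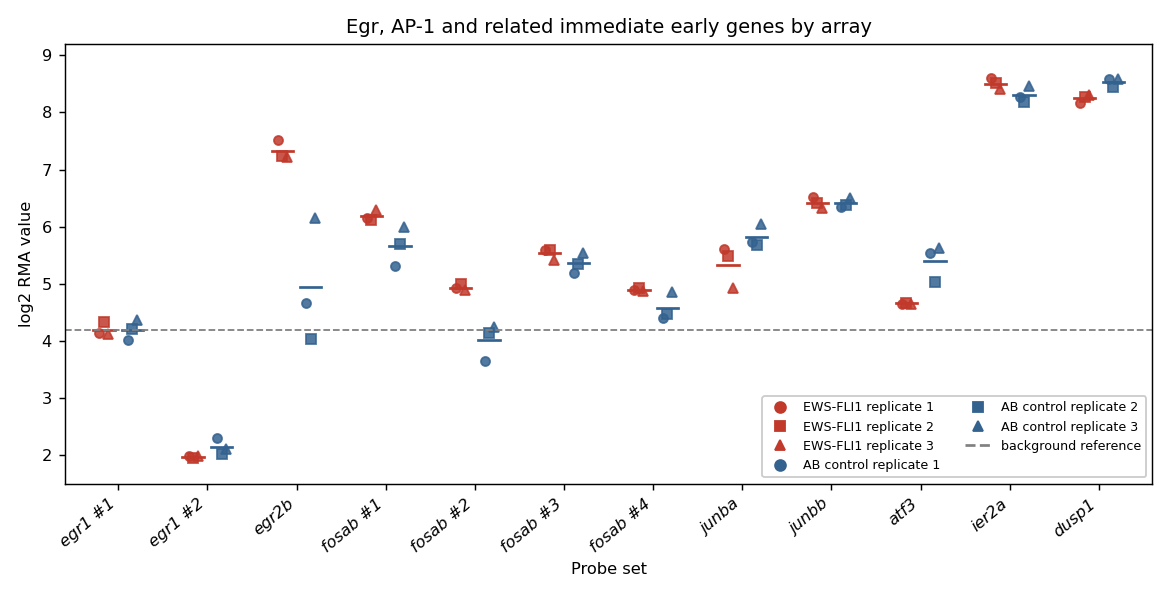
log2 RMA value of each of the 12 probe sets in each array, EWS-FLI1 in red and AB control in blue, with a symbol for each replicate, a bar at the group mean and a dashed line at the background reference. The EWS-FLI1 values of egr2b lie between 7.22 and 7.51, above AB controls spread from 4.04 to 6.15, and probe sets of egr1 and fosab are numbered in the order of the text.

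egr2b read 7.51, 7.24 and 7.22 in the EWS-FLI1 arrays, against 4.66, 4.04 and 6.15 in AB control replicates 1, 2 and 3. The EWS-FLI1 arrays were high and close together, while the controls ranged widely and all stayed below them. The means were 7.32 ± 0.16 in EWS-FLI1 and 4.95 ± 1.08 in AB control (SD, n = 3 each). The difference of 2.37 (SE 0.44, limma adjusted p = 0.00951) is a 5.18-fold higher level, with a 95% interval from 2.59-fold to 10.3-fold. This SE is smaller than the SDs of these arrays alone would give, so the interval is narrower too. The call was lost without EWS-FLI1 replicate 1 (difference 2.28, adjusted p = 0.0534). Without AB control replicate 3, the highest control, the difference was 2.97 (adjusted p = 5.9e-05).

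egr1, the founding member of the family and a widely used readout of ERK signalling, was not called at either of its probe sets. Its first probe set read 4.14, 4.33 and 4.12 in EWS-FLI1 arrays, against 4.01, 4.21 and 4.36 in AB controls. Both group means lay at the background reference, and the groups overlapped. The difference was 0.00 with a 95% interval from -0.25 to 0.26 (adjusted p = 0.990), and the suffix of its probe set name marks probes that can be shared with other transcripts. The second probe set was below the reference in every array, at 1.99, 1.95 and 1.98 in EWS-FLI1 and 2.30, 2.01 and 2.11 in AB control (difference -0.17, adjusted p = 0.348). A fall of egr1 from these levels was not detectable with these probe sets. Whether they detect egr1 in these embryos at all was not shown, so a lack of change in egr1 is not shown either.

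The other Egr genes and partners that were measured read at background. Of 7 names listed, 4 were measured (egr2a, egr4, the Egr corepressor gene nab1a and the related zinc-finger gene wt1a), and all 4 were at or under the background reference in both groups. limma called 0 of them, and 0 had an unadjusted p under 0.05. Of all genes, 5.65% were called higher and 7.12% lower, so 0 of 4 does not set these genes apart. At such low signal a lack of calls says little about them. The largest differences were -0.18 for wt1a (adjusted p = 0.527) and -0.13 for egr4 (adjusted p = 0.606). egr2a, the paralog of egr2b, named after its values were seen, read 3.63, 3.98 and 3.81 in EWS-FLI1 and 3.81, 4.04 and 3.86 in AB controls.

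Because egr2b marks the hindbrain, a list of hindbrain genes was set beside it. Of 13 measured, 6 were lower in EWS-FLI1 embryos, 7 were not called and 0 were higher (0 also at an unadjusted p under 0.05). Of all genes, 7.12% were called lower and 5.65% higher. The median of the list was -0.61, compared with 0.00 for all genes, and 12 of the 13 had a negative difference, against 4337 of all 8793 genes. The summed log2 level of the list was 69.4 to 72.9 in EWS-FLI1 arrays and 75.8 to 81.5 in AB controls. The count of 6 became 3 without EWS-FLI1 replicate 1 and 8 without AB control replicate 2. In both groups 3 of the 13 were at or under the background reference. Lower calls were not particular to this list, since 12 of 24 gastrula genes were also lower and 1 higher (median -0.46). egr2b was thus higher, while the 6 called genes of this list were lower. Which cells gave the egr2b signal was not measured in these whole embryos, so it is not shown to come from the hindbrain.

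hoxb1a, which specifies a hindbrain segment, read 4.71, 5.13 and 4.99 in EWS-FLI1 and 6.41, 5.82 and 6.79 in AB controls, a difference of -1.40 (SE 0.22, adjusted p = 0.00489). hoxb3a changed by -1.07 (adjusted p = 0.00895), irx1b by -1.04 (adjusted p = 0.00177) and the Hox cofactor gene meis3 by -0.84 (adjusted p = 0.0297). The call of hoxb3a did not hold when EWS-FLI1 replicate 1 was left out, and that of meis3 did not hold without any 1 EWS-FLI1 replicate or without AB control replicate 1 (highest adjusted p = 0.0505 and 0.123). epha4a, the ephrin receptor gene whose mouse homolog is activated by the mouse homolog of egr2b in the hindbrain, read 6.34, 6.57 and 6.63 in EWS-FLI1 and 7.38, 6.77 and 7.22 in AB controls. Its difference was -0.61 (adjusted p = 0.0386), and the call held in only 1 of the 6 fits that left out 1 array, that without AB control replicate 2. A second, dimmer epha4a probe set was not called (difference -0.17, adjusted p = 0.577), and epha4a was named after its value was seen.

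The genes that flank egr2b were also read. In the gene order of the RefSeq assembly GRCz12tu, egr2b lies between adoa and nrbf2b, and both were higher in EWS-FLI1 embryos. nrbf2b, which encodes a subunit of an autophagy lipid kinase complex, read 8.60, 8.52 and 8.55 in EWS-FLI1 and 7.48, 7.19 and 7.17 in AB controls. Its difference was 1.28 (SE 0.10, adjusted p = 1.8e-04), and the call held in each fit without 1 array. adoa, a thiol dioxygenase gene, read 7.13, 6.83 and 6.82 in EWS-FLI1 and 6.52, 6.38 and 6.47 in AB controls. Its difference was 0.47 (SE 0.11, adjusted p = 0.0230), and its call was lost without any 1 EWS-FLI1 replicate (highest adjusted p = 0.0840) and with arrays scaled on the spike-in controls.

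Across the 8 measured members, 32 neighbours were looked up, 2 on each side, and 11 of them were measured. The 2 called higher were those of egr2b, and 1 was called lower, jdp2b near fosab. Of all genes, 5.65% were called higher and 7.12% lower. Near dusp1, the lymphatic receptor gene flt4 differed by 0.71 without a call (adjusted p = 0.0829).

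**Figure D2:**
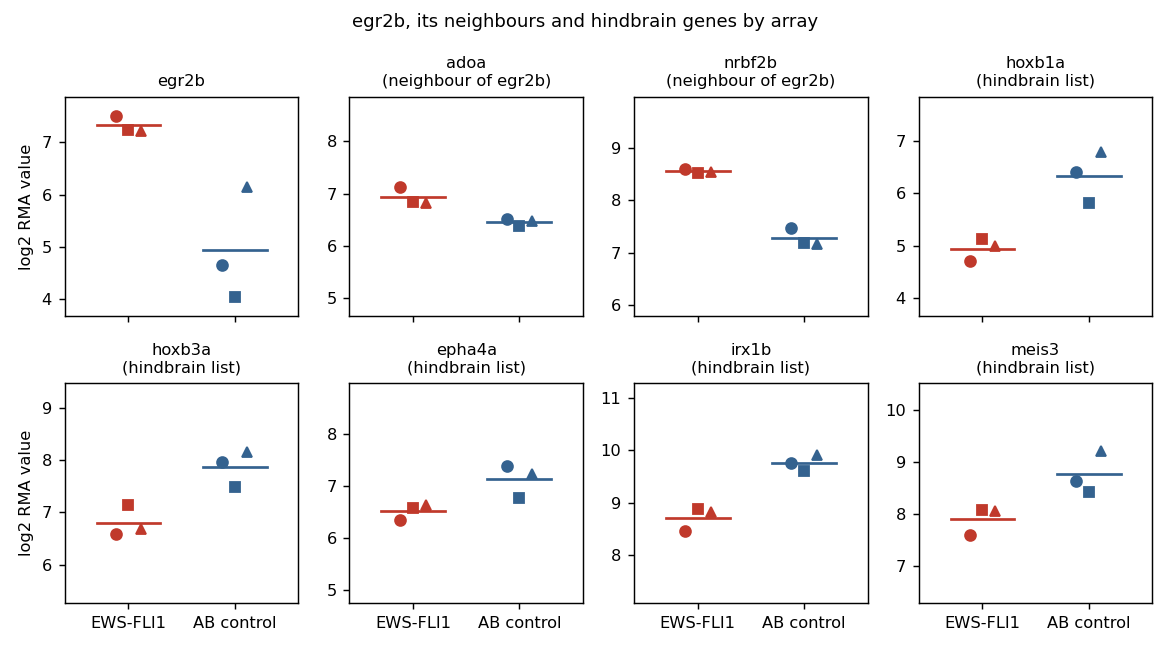
log2 RMA value by array for egr2b, its neighbours adoa and nrbf2b, and 5 genes of the hindbrain list, EWS-FLI1 left in red and AB control right in blue, with symbols for replicates 1 (circle), 2 (square) and 3 (triangle), bars at the means and the same axis span in every panel. egr2b, adoa and nrbf2b are above the controls in every EWS-FLI1 array, and the 5 hindbrain genes are below them.

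The genes whose profile over the 6 arrays lay nearest to that of egr2b, by root mean square distance after subtraction of each control mean, were svila, robo1 and hsp90aa1.1. svila, which encodes an actin-associated supervillin, had a distance of 0.39 log2 units. It read 7.08, 6.81 and 6.87 in EWS-FLI1 and 4.33, 4.30 and 5.06 in AB controls. The distance was 0.53 for both the axon guidance receptor gene robo1 and the heat shock chaperone gene hsp90aa1.1, whose differences were 2.14 and 2.93. These genes were picked for their likeness over the same arrays, so differences near that of egr2b follow from the search. Shared regulation was not tested.

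Among AP-1 genes, fosab, the zebrafish c-Fos gene, was read by 4 probe sets. Each gave a higher mean in EWS-FLI1 embryos, but 1 passed the test. The first read 6.16, 6.12 and 6.29 in EWS-FLI1 and 5.31, 5.70 and 5.99 in AB controls, a difference of 0.52 (SE 0.16, adjusted p = 0.0701). The second read 4.92, 4.99 and 4.89 in EWS-FLI1, against 3.65, 4.13 and 4.24 in AB controls. It was the one called, with a difference of 0.93 (SE 0.15, adjusted p = 0.00464), a 1.90-fold higher level, from a control mean under the background reference. Its call held without each array in turn (adjusted p from 0.00275 to 0.0285).

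The third fosab probe set read 5.59, 5.59 and 5.42 in EWS-FLI1 and 5.19, 5.34 and 5.54 in AB controls, and was the only one of the 4 whose groups overlapped (difference 0.18, adjusted p = 0.391). The last one read 4.89, 4.93 and 4.87 in EWS-FLI1 and 4.40, 4.47 and 4.86 in AB controls (difference 0.32, adjusted p = 0.150). Averaged over the 4, fosab read 5.39, 5.41 and 5.37 in EWS-FLI1 and 4.64, 4.91 and 5.16 in AB controls. The EWS-FLI1 pools agreed closely and the control pools did not.

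AB control replicate 3 was the highest control at all 4 fosab probe sets. Without it, the first and the last fosab probe sets were also called (differences 0.69 and 0.46, adjusted p = 0.0111 and 0.0107), which brought the member probe sets called higher to 4. With array weights the first was called as well (adjusted p = 0.0220).

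The JunB genes, which encode AP-1 partners of Fos, are a pair of paralogs. junba read 5.61, 5.48 and 4.92 in EWS-FLI1 and 5.73, 5.67 and 6.05 in AB controls. The groups did not overlap, and the difference of -0.48 did not pass the test (SE 0.18, adjusted p = 0.140). junbb read 6.52, 6.41 and 6.33 in EWS-FLI1 and 6.34, 6.38 and 6.50 in AB controls. Its difference was 0.01, with a 95% interval from -0.19 to 0.22 (adjusted p = 0.961), so a change beyond 1.17-fold in either direction lies outside that interval. junbb minus junba was 0.91 to 1.41 in EWS-FLI1 and 0.45 to 0.71 in AB controls, a difference of 0.49. The exact permutation p was 0.1 (two-sided, also 0.1 after adjustment over 4 such contrasts), which is the smallest p that 3 arrays against 3 can give. All 4 contrasts were added after the values were seen and all gave 0.1, so the adjustment could change nothing.

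atf3, a stress-induced repressor that pairs with Jun proteins, was the member called lower. It read 4.65, 4.67 and 4.65 in EWS-FLI1 and 5.53, 5.03 and 5.62 in AB controls. The means were 4.66 ± 0.01 in EWS-FLI1 and 5.39 ± 0.32 in AB control (SD, n = 3 each). The EWS-FLI1 arrays agreed closely, not far above the background reference, and lay below every control. The difference was -0.74 (SE 0.15, adjusted p = 0.0133), a 1.67-fold lower level, with a 95% interval from -1.07 to -0.40 on the log2 scale. The call was lost without any 1 EWS-FLI1 replicate, at adjusted p-values of 0.0625, 0.0524 and 0.0580, although the difference kept its size at -0.73 to -0.74. Without AB control replicate 2, the lowest control, the adjusted p was 3.9e-04.

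**Figure D3:**
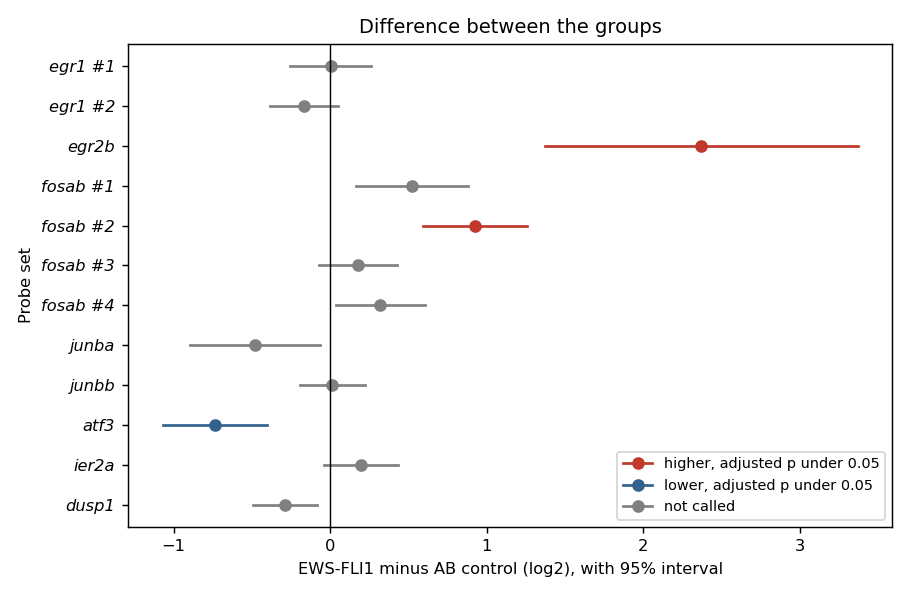
EWS-FLI1 minus AB control on the log2 scale for each probe set, with its 95% interval from limma. Red marks a higher call, blue a lower call and grey no call, and the interval of egr2b runs from 1.38 to 3.37.

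Other AP-1 and related leucine zipper genes were read from a list of 26 names, of which 11 were measured. Of these, 5 were lower in EWS-FLI1 embryos, 1 was higher and 5 were not called, with a median of -0.19. Of all genes, 7.12% were called lower and 5.65% higher. The groups did not overlap at 8 of the 11, against 31.5% of all genes. The count of 5 became 2 without any 1 EWS-FLI1 replicate and 3 without AB control replicate 1.

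jun, the main dimer partner of Fos, read 5.98, 5.95 and 5.64 in EWS-FLI1 and 6.73, 6.65 and 6.83 in AB controls. The difference was -0.88 (SE 0.11, adjusted p = 0.00174), and a second jun probe set was also lower, by a difference of -0.60 (adjusted p = 0.00728). The means of fosab and jun differed in opposite directions, but the first fosab probe set was not called. That probe set minus jun was 0.17 to 0.65 in EWS-FLI1 and -1.42 to -0.84 in AB controls. This within-array value differed by 1.40 between the groups (exact permutation p = 0.1, 0.1 after adjustment). The pair was picked after the values were seen, and 0.1 is the smallest p possible here. Leaving out any 1 array kept the lower call of jun.

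atf4a, a factor of the integrated stress response, read 8.94, 9.16 and 9.13 in EWS-FLI1 and 9.68, 9.81 and 9.80 in AB controls (difference -0.69, adjusted p = 0.00251). atf5a was higher by 0.56 (adjusted p = 0.00530), but was under the background reference in both groups. maff, a small Maf gene, changed by -0.55 (adjusted p = 0.0240). jdp2b, an AP-1 repressor gene, and fosl2, a Fos-related gene, both named after their values were seen, changed by -0.45 and -0.44 (adjusted p = 0.0226 and 0.0328). maff, jdp2b and fosl2 each lost the call without any 1 EWS-FLI1 replicate (highest adjusted p = 0.109, 0.0887 and 0.126), and maff and jdp2b also without AB control replicate 1. The 2 other probe sets of fosl2 were not called (adjusted p = 0.304 and 0.600).

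ier2a, a nuclear immediate early gene, read 8.60, 8.51 and 8.41 in EWS-FLI1 and 8.28, 8.18 and 8.47 in AB controls. The groups overlapped, and the difference of 0.20 did not pass the test (95% interval -0.04 to 0.43, adjusted p = 0.293). dusp1, a phosphatase that switches off MAP kinases, read 8.16, 8.28 and 8.31 in EWS-FLI1 and 8.59, 8.44 and 8.59 in AB controls. The groups did not overlap, and the difference of -0.29 was not called (95% interval -0.49 to -0.09, adjusted p = 0.0746). Without AB control replicate 2 it was called (difference -0.34, adjusted p = 0.0469).

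Of 9 further Dusp genes measured from 20 names, dusp5 was higher, 0 were lower (2 at an unadjusted p under 0.05 in limma) and 8 were not called. Their median was -0.13, and 5.65% of all genes were called higher and 7.12% lower. dusp5, a nuclear ERK phosphatase gene, read 5.38, 5.71 and 5.08 in EWS-FLI1 and 3.51, 3.78 and 4.37 in AB controls, from a control mean under the background reference (2.83-fold higher, SE 0.23 on the log2 scale, adjusted p = 0.00377). dusp6, the ERK phosphatase gene that follows fibroblast growth factor signalling, differed by -0.01 with a 95% interval from -0.23 to 0.21 (adjusted p = 0.973). The count of lower genes became 1 without AB control replicate 2 or 3 and with spike-in scaling.

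Upstream of the immediate early genes, 21 of 48 listed MAP kinases, their activators and SRF, Elk and Creb factors were measured. Across all genes, 5.65% were called higher and 7.12% lower. Of the 21 measured here, 0 were higher (0 at an unadjusted p under 0.05 in limma), 1 was lower and 20 were not called, with a median of 0.01. The one called was mapk11, a stress-activated kinase gene, which changed by -0.39 (adjusted p = 0.0310), with an EWS-FLI1 mean under the background reference, and lost the call when EWS-FLI1 replicate 1 or 3 or AB control replicate 1 was left out (adjusted p up to 0.135). Without AB control replicate 2 or 3 the count was 2. In both groups 7 of the 21, srfa among them, were at or under the background reference. These are transcript levels, and kinase activity was not measured.

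A wider list of 66 immediate early names gave 46 measured genes. In EWS-FLI1 embryos 14 were lower, 7 were higher and 25 were not called, and the median was -0.25. The groups did not overlap at 30 of the 46, against 31.5% of all genes, of which 7.12% were called lower and 5.65% higher. The lower count became 5, 9 and 8 without EWS-FLI1 replicates 1, 2 and 3, and the higher count became 4 without any of them. sgk1, a kinase gene induced by stress and steroid hormones, read 9.80, 9.46 and 9.58 in EWS-FLI1 and 6.48, 6.52 and 6.74 in AB controls, a difference of 3.03 (adjusted p = 1.7e-06). plk2b, a Polo-like kinase gene, was 2.17-fold higher and sik1, a salt-inducible kinase gene, 2.15-fold higher (adjusted p = 3.2e-04 and 5.9e-04), both from control means under the background reference. irf1b, an interferon regulatory factor gene, read 3.67, 4.39 and 3.85 in EWS-FLI1 and 5.57, 5.11 and 7.0 in AB controls, with the EWS-FLI1 mean under the background reference. Its difference was -1.92 (adjusted p = 0.0199), and the call was not kept when EWS-FLI1 replicate 1 or 3 was left out (adjusted p up to 0.0934).

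**Figure D4:**
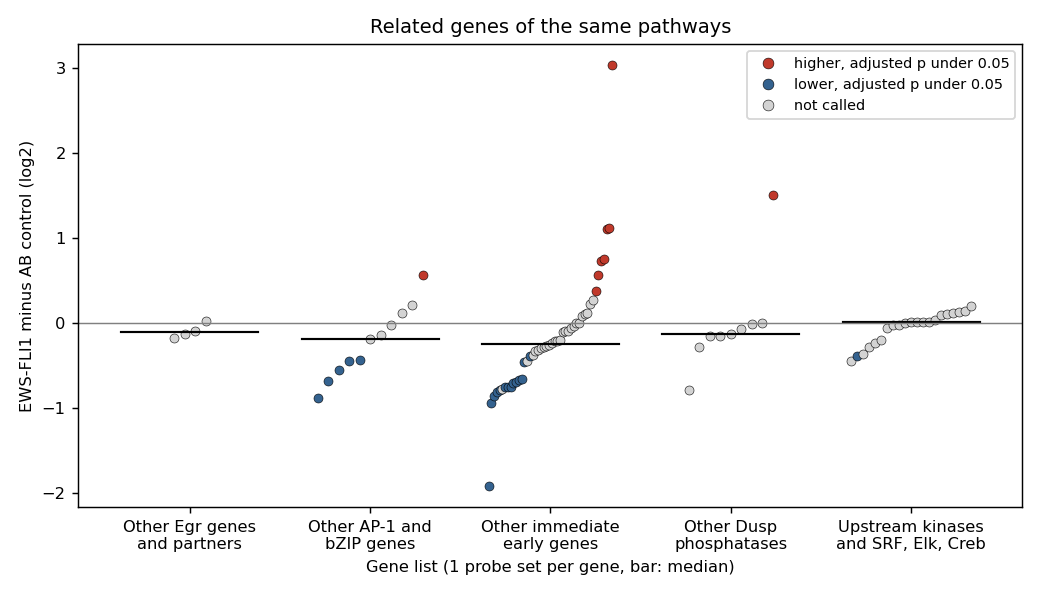
EWS-FLI1 minus AB control (log2) for each measured gene of 5 lists of related genes, 1 point per gene, with a bar at the median of each list. Red marks a higher call, blue a lower call and grey no call. The AP-1 list holds 5 lower genes and 1 higher, and the wider immediate early list 14 lower and 7 higher.

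The members varied more among AB control pools than among EWS-FLI1 pools. The SD was larger in AB controls at 10 of the 12 probe sets and larger in EWS-FLI1 at 2. The median SD over the 12 was 0.092 in EWS-FLI1 and 0.19 in AB controls, beside 0.092 and 0.14 over all probe sets. Among the control arrays, replicate 3 was the highest at 10 of the 12 probe sets, where it was the highest at 40.3% of all probe sets. Its median deviation from the control mean was 0.21 for the 12 and 0.02 for all probe sets. The exceptions were the second egr1 probe set and dusp1, in which replicates 1 and 3 tied. The 4 fosab probe sets read 1 gene and are not independent.

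The same array stood out in the hindbrain list, where it was the highest control at 9 of 13 genes, and not in the gastrula list, where it was the highest at 3 of 24. AB control replicate 3 was also the highest control at 11 of 21 upstream genes, 18 of 46 wider immediate early genes and 4 of 11 other AP-1 genes. For all genes this share was 41.6%. EWS-FLI1 replicate 2 was likewise the highest of its group at 9 of 13 hindbrain genes, against 30.4% of all genes. In the EWS-FLI1 group, replicate 3 was the lowest at 8 of the 12 member probe sets, where it was the lowest at 28.3% of all probe sets. Its median deviation was -0.06 for the 12 and 0.01 for all probe sets, and 4 of the 12 read fosab. The part that this array plays in the results on the members was not tested beyond the fits without it given above.

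**Figure D5:**
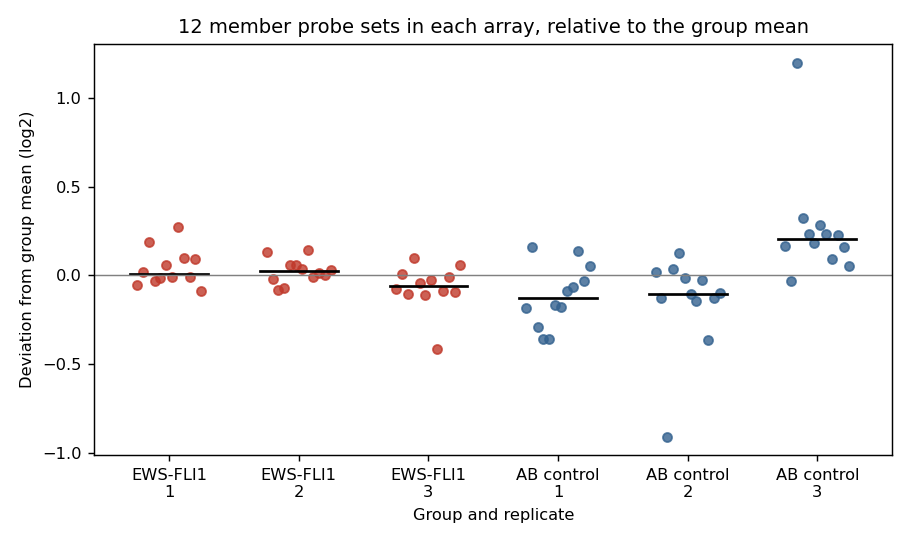
Deviation of each of the 12 member probe sets from its own group mean (log2) in each array, 1 point per probe set, with a bar at the median of the array. The points of AB control replicate 3 lie mostly above 0, with a median of 0.21.

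Markers of regions and cell types that a whole embryo contains were read beside the members. The share of all genes called was 5.65% higher and 7.12% lower. Of 24 gastrula genes, 12 were lower, tbxta alone was higher (0.54) and 11 were not called (median -0.46), with tp63 at -1.33, fgf8a at -0.96 and chrd and gsc at -0.91. Their summed log2 level was 185 to 188 in EWS-FLI1 and 197 to 202 in AB controls. Of 15 genes of the enveloping layer, an epithelium that surrounds the blastoderm, krt94 was higher by 3.86 from a control mean under the background reference. Another 4 were lower, led by klf17 (-0.78), anxa1c (-0.58) and evpla (-0.52, under the background reference in both groups), and this count became 2 without any 1 EWS-FLI1 replicate or without AB control replicate 1 or 2. The enveloping layer sums were 119 to 121 in EWS-FLI1 and 118 to 120 in AB controls. They include krt94, which read 7.73, 7.56 and 8.06 in EWS-FLI1 and 4.27, 3.52 and 3.99 in AB controls. Of the 15 genes, 10 had a negative difference, and the median was -0.08. The defining marker of the layer, krt4, differed by -0.17 (adjusted p = 0.380).

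Of 11 yolk syncytial layer genes limma called 0 in either direction, with 1 at an unadjusted p under 0.05, and 2 lower without AB control replicate 3. hnf4a (-0.50) and apoa1a (-0.21) differed most, the sums were 87.5 to 88.5 in EWS-FLI1 and 88.4 to 90.4 in AB controls, and the marker mxtx2 was under the background reference in both groups. Of 14 blood and vessel genes, 5 were higher and 0 lower (1 at an unadjusted p under 0.05), among them lmo2 (3.44), tie1 (1.37), fli1rs (1.11) and kdrl (0.90), each from a control mean under the background reference. The brightest fli1 probe set was not called (0.29, limma adjusted p = 0.0789). A dimmer one, not counted here, was higher (1.25, limma adjusted p = 0.00152), under the background reference in both groups. Whether the fli1 and fli1rs probe sets also read the transgene was not tested. Beside the counts of both lists, 5.65% of all genes were called higher and 7.12% lower. The blood and vessel sums were 63.7 to 64.5 in EWS-FLI1 and 55.3 to 57.5 in AB controls. The blood markers gata1a, spi1b, tal1, runx1 and ikzf1 were under the reference in both groups, and lcp1, hbae3 and mpx were above it in both without a call. The part of these shifts in the results on the members was not tested.

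RNA integrity was read from the 3' minus 5' values of control probe sets. For GAPDH this was 1.21 ± 0.10 in EWS-FLI1 and 0.83 ± 0.12 in AB controls (SD, n = 3 each, exact permutation p = 0.1), and for acta1 -0.42 ± 0.07 and -0.11 ± 0.27 in the same groups (exact permutation p = 0.1). The values of both controls thus differed in opposite directions, and their part in the results was not tested.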

How the data were processed

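RNA of 6 embryo pools was hybridised to zebrafish Affymetrix arrays, from 2.5 µg of total RNA per the labels' protocols. The table deposited by the authors gives a log2 expression value for every probe set on each array. The tools listed per the submitters' processing notes are RMA, affy and R 2.2.0. RMA subtracts background, forces a common distribution on the arrays and pools the probes of a set, which shrinks differences at low signal. That the base is 2 was judged from how far the numbers reach, since no source states it. The genome build is not given in the sources used here. Of 15617 probe sets, 115 controls were left out. The platform annotation gave 1 gene for 10795 probe sets, several for 135 and none for 4572. Of the 10795 probe sets, 10711 were matched by Entrez ID against RefSeq (GRCz12tu), which served for names and gene order only.

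R 4.3.3 and limma 3.58.1 (lmFit and eBayes, two-sided) served for the fit to all 15502 probe sets, with Benjamini-Hochberg adjustment over all of them. The threshold for a call was an adjusted p of 0.05. The fit was tested on simulated data. In the lists, each gene stood by its brightest probe set. Exact permutation tests used scipy 1.17.1. The smallest p for 3 against 3 is 0.1.

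The members, lists and tests were chosen with earlier results of these data known. The rule for named genes took all member probe sets, up to 4 called genes per list (or the 2 largest differences) and the 3 genes nearest to egr2b. The background reference, the look-up of neighbours and the contrasts between changes were added after the values were seen. Other settings tried were array weights, a trended prior, scaling on medians or on spike-in controls, removal of dim probe sets, a block for replicate numbers and fits lacking each array in turn. Sequences of these genes were not used here.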

Additional observations from a re-analysis of the deposited data

How the results depend on the processing

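Of the 12 member probe sets, 2 were called higher and 1 lower. Leaving out 1 array at a time gave 1 to 4 higher and 0 to 2 lower, and over all probe sets 450 to 1023 higher and 433 to 1286 lower, against 834 and 1001. The lower call of atf3 was lost without any 1 EWS-FLI1 replicate, while the higher call of egr2b did not hold when EWS-FLI1 replicate 1 was left out. With the replicate block, 3 member probe sets were called higher and 1 lower (705 and 871 over all probe sets), the added one being the first fosab probe set (adjusted p = 0.0460), and mapk11, epha4a and fosl2 lost their calls. The deviations of same-numbered arrays did not run together (correlations -0.0822, -0.0992 and -0.0761). Those of differently numbered arrays gave -0.00304 to 0.0774. Whether same-numbered arrays share a clutch is not given by the labels, and these correlations cannot decide it. Without dim probe sets, with median centring, with the trended prior and with spike-in scaling, the counts were again 2 and 1, and with array weights 3 and 1. The second egr1 probe set gave no value without dim probe sets. Spike-in scaling moved the median of all differences to -0.07 and the share of higher among all calls to 31.8%, against 45.4% on the deposited scale. The near-zero differences changed sign: the first egr1 probe set gave -0.067 with spike-in scaling and -0.088 to 0.087 without 1 array, and junbb gave -0.057 with spike-in scaling and -0.037 to 0.06 without 1 array. None of these was called in any of those fits. The cause of the lost calls was not tested, while each fit without an array has fewer samples. Signal near the background reference limits egr1, atf3 in EWS-FLI1 and the called fosab probe set in AB controls.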
